A study of Mus musculus with 16 samples.

Results

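The genes Pecam1, Cdh5, Kdr, Tek, Tie1, Vwf, Emcn, Cldn5, Eng and Esam, which mark blood endothelium of most vessels, were taken by name, and all 10 were found among the 55421 genes listed for each library. Earlier results of these data were known when they were chosen. All 10 passed the filter on low counts in WAT and in liver, and the lowest value of any of them was 2427 counts, for Emcn in a WAT library of fl/fl mice on NOX_6_18. RNA-seq had been done on 16 libraries from C57BL/6 mice on a diet written HFD, with 45624957 to 60761705 counts per library and 2 libraries for each of 8 groups. In WAT and again in liver the groups were GPR132fl/fl (fl/fl below) on NOX_6_18, GPR132fl/fl with Lyz2_cre+ (CKO) on vehicle, CKO on NOX_6_18, and fl/fl on vehicle. NOX_6_18 is an antagonist of GPR132, a G protein-coupled receptor, and the study asked which genes and pathways it acts on through the receptor in macrophages. Every mouse carried the floxed allele, so no group had an unmodified receptor gene. Cre recombinase in CKO mice was driven from Lyz2, a gene of the myeloid lineage and not an endothelial driver. No source used here states age, sex, dose or length of treatment, or whether the libraries of one group are from different animals. The p-values therefore measure the spread between libraries, which may be technical.

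The RNA is labelled as macrophage RNA, although whole tissue was put into liquid nitrogen. A list of 10 macrophage markers summed to 6279 to 9796 CPM in WAT and 1572 to 1641 CPM in liver, where CPM is the count scaled to library size with trimmed mean of M values (TMM) factors. RNA of other cells was plentiful. The 10 endothelial genes summed to 2165 to 3117 CPM in WAT and 5018 to 5233 CPM in liver, 7 fibroblast genes to 11340 to 21940 CPM in WAT, and 6 hepatocyte genes to 2475 to 2765 CPM in liver. A list of 6 adipocyte genes summed to only 119 to 142 CPM in WAT, below the macrophage, endothelial and fibroblast lists. Gpr132 itself had 35.6 to 64.5 CPM in WAT of CKO mice, against 60.1 to 72.5 CPM in WAT of fl/fl mice. In liver it had 1.86 and 1.46 CPM in CKO on vehicle, against 4.26 and 4.04 CPM in fl/fl on vehicle, but 2.81 and 2.41 CPM in CKO on NOX_6_18, against 2.13 and 1.64 CPM in fl/fl on NOX_6_18, so on NOX_6_18 both livers labelled CKO lay above both labelled fl/fl. Over both treatments the ranges of the genotypes overlapped in each tissue, and a count over the whole gene checks a deletion within it only in part. In bulk RNA, fewer endothelial cells and less RNA per endothelial cell cannot be told apart.

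The libraries of fl/fl mice on vehicle stood apart in both tissues, and 3 comparisons in each tissue share them as controls. In WAT, 8 spermatid and spermatocyte genes summed to 741 to 816 CPM in the 6 other libraries, against 19.4 and 23.7 CPM in fl/fl on vehicle. In liver, 5 neutrophil genes summed to 53.8 to 59.9 CPM in the 6 other libraries, against 3.84 and 4.09 CPM in fl/fl on vehicle. Of these lists, Boll in WAT and Ly6g in liver were at 0 in both fl/fl vehicle libraries. No comparison with fl/fl on vehicle is possible without these libraries, and the part they have in the differences below was not tested.

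Endothelial cells line blood vessels and are held together by adherens and tight junctions, and their growth and rest are set largely by VEGF, angiopoietin and BMP/TGF-beta signals. Kdr encodes VEGF receptor 2, the main signalling receptor for VEGF-A. Tek encodes TIE2, the angiopoietin receptor, Tie1 its orphan partner receptor, and Eng encodes endoglin, a co-receptor for BMP9 and BMP10. Cdh5 encodes VE-cadherin, the cadherin of endothelial adherens junctions, Pecam1 an adhesion molecule of the cell border, Cldn5 the claudin of endothelial tight junctions, and Esam a junctional adhesion molecule. Vwf encodes von Willebrand factor, the clotting glycoprotein stored in endothelial granules and also made by megakaryocytes, and Emcn encodes endomucin, a surface sialomucin of veins and capillaries. Pecam1 and Eng are also made by some myeloid cells. Sinusoidal endothelium of the liver is fenestrated and rich in scavenger receptors, whereas capillaries of fat form a continuous lining.

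All 10 are protein-coding genes, at these positions in GENCODE M21 on GRCm38. The receptor genes lie at chr5:75932827-75978458 (Kdr, minus strand), chr4:94739289-94874976 (Tek, plus), chr4:118471191-118490061 (Tie1, minus) and chr2:32646595-32682669 (Eng, plus). The junction genes lie at chr8:104101625-104144511 (Cdh5, plus), chr11:106654217-106750628 (Pecam1, minus), chr16:18776847-18778262 (Cldn5, plus, a gene of 1 exon) and chr9:37528078-37538319 (Esam, plus). Vwf lies at chr6:125546774-125686679 and Emcn at chr3:137341067-137432185, both on the plus strand. Exons of Eng overlap those of Fpgs on the opposite strand by 61 bases, and no source used here states the strand setting of the counting, so Eng counts are uncertain to that extent.

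Promoters are shown because most of these genes were lower together in WAT while their proximal sequences differ. Of the 6 matched below, Emcn followed the others least. Factors of the ETS family, which bind sites with the core GGAA (TTCC on the other strand), are known regulators of endothelial genes. RefSeq promoter windows (build GRCm38.p6, 250 bases before to 50 after the start) were matched for 6 of the 10 genes, Kdr, Tek, Tie1, Emcn, Cldn5 and Eng, and the 4 printed here span the range of core counts. They read 5′ to 3′ on the gene's strand, with each GGAA or TTCC in capitals.
Tie1 promoter, chr4:118489800-118490099, minus strand: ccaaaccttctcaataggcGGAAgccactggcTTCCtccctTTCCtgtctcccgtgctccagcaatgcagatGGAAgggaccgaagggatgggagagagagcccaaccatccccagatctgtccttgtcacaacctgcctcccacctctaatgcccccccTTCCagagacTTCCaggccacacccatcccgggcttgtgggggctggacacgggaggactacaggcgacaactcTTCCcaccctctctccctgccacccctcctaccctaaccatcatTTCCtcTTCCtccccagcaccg
Kdr promoter, chr5:75978406-75978705, minus strand: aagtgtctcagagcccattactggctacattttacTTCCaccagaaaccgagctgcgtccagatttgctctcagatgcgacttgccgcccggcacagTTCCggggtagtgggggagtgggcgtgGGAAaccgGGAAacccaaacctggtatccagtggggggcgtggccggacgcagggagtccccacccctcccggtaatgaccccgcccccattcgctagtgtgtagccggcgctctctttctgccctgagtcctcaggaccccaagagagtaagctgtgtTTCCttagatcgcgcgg
Tek promoter, chr4:94739039-94739338, plus strand: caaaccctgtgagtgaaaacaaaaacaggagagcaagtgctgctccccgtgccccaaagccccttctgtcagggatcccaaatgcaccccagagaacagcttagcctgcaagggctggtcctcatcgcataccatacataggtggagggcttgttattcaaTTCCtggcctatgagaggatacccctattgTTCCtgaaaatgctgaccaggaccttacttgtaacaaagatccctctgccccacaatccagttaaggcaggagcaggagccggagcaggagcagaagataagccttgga
Cldn5 promoter, chr16:18776597-18776896, plus strand: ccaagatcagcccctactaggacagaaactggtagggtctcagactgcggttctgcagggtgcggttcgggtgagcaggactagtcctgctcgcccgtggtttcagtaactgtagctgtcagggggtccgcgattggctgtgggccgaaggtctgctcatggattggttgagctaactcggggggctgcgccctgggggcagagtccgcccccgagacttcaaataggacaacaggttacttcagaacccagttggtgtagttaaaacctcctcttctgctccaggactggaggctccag
Tie1 held 9 copies of the core, and 99.4% of 32851 promoters of this length hold no more than that. Emcn held 6 copies, Kdr 5, Eng 4, Tek 2 and Cldn5 none. The core is common, being present in 96.0% of all promoters with a median of 3 copies. The longer CAGGAA, which contains the core, was present in Tek and Emcn (2 copies each) and in Tie1 and Eng (1 each), against 30.6% of all promoters. CCGGAA, which also contains it, was found in Kdr, against 14.9%. Of the other motifs searched on both strands, AGATAA was found in Tek (11.2% of all promoters), GGGCGG in Kdr and Cldn5 (35.7%), CACCC in 5 of the 6 (57.5%) and CANNTG in all 6 (72.3%). TGTTTA (13.4% of all promoters) and TATAAA (13.6%) were found in none of the 6. These are matches of letters, not sites.

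In WAT of fl/fl mice, 9 of the 10 endothelial genes were lower on NOX_6_18 than on vehicle and none was higher. Among these, Kdr fell by 21.8%, the least, and Cldn5 fell by 38.2%, the most, while only Vwf had groups that overlapped. The share of all genes whose groups stay apart was not computed, here or for the groups below. Calls were made with edgeR's quasi-likelihood test at a Benjamini-Hochberg adjusted p under 0.05 over all genes. Calls were common here: 37.8% of 25871 genes passed, 13.2% lower. The split of called genes depended on scaling (6373 higher and 3411 lower, 7498 and 1582 on library totals, 5902 and 5488 after the GC and length correction). Of 5618 genes with a mean of at least 40 CPM in WAT, a subset chosen after the values were seen that includes all 10, 37.2% were called lower, with a median log2 fold change of −0.17 and quartiles of −0.36 and 0.059. The median of the 10 endothelial genes was −0.45, against 0.12 over all genes tested. On library totals the median of all genes was 0.29, and after the GC and length correction −0.015. That correction also recentres every library, so a median near 0 is built in and the split of called genes moves with it. The 9 genes stayed below 0 under each.

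Among the signalling receptors, Kdr had 249 and 224 CPM in fl/fl WAT on NOX_6_18, against 285 and 320 CPM on vehicle. Its log2 fold change was −0.36 ± 0.086 (SE, n = 2 libraries per group, as throughout, edgeR adjusted p = 0.0124). The Kdr call was lost on library totals (−0.19, adjusted p = 0.132), without fl/fl vehicle replicate 2 (−0.27, adjusted p = 0.0519) and without fl/fl NOX_6_18 replicate 2 (−0.26, adjusted p = 0.123). Tek had 112 and 115 CPM on NOX_6_18, against 149 and 158 CPM on vehicle (−0.43 ± 0.064, edgeR adjusted p = 0.0011). Its libraries were close within each group and apart between them. Tie1, its partner receptor, had 159 and 162 CPM on NOX_6_18, against 219 and 230 CPM on vehicle (−0.48 ± 0.060, edgeR adjusted p = 0.000391). Tek thus fell by 25.7% and Tie1 by 28.4%. Eng had 202 and 212 CPM on NOX_6_18, against 299 and 291 CPM on vehicle, and fell by 29.9% (−0.51 ± 0.062, edgeR adjusted p = 0.000354).

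The 4 junction genes fell as well, and none of their groups overlapped. Cldn5 had 139 and 143 CPM in fl/fl WAT on NOX_6_18, against 242 and 215 CPM on vehicle. Its log2 fold change of −0.70 ± 0.078, edgeR adjusted p = 0.000211, was the lowest of the 10. Cdh5 had 427 and 418 CPM on NOX_6_18, against 607 and 638 CPM on vehicle, and fell by 32.1% (−0.56 ± 0.056, edgeR adjusted p = 0.00011). Pecam1 had 357 and 358 CPM on NOX_6_18, against 528 and 502 CPM on vehicle (−0.53 ± 0.051, edgeR adjusted p = 9.52e-05). Its NOX_6_18 libraries were nearly equal. Esam had 138 and 138 CPM on NOX_6_18, against 191 and 178 CPM on vehicle (−0.42 ± 0.071, edgeR adjusted p = 0.00212).

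The vehicle libraries differed from each other for the surface and secreted glycoproteins. Emcn had 44.8 and 47.3 CPM on NOX_6_18, against 68.8 and 53.2 CPM on vehicle (−0.41 ± 0.13, edgeR adjusted p = 0.0344). The Emcn call was lost on library totals (−0.24, adjusted p = 0.175), with only the compared groups in the fit (−0.39, adjusted p = 0.0727) and without any 1 of 7 of the 8 WAT libraries (adjusted p from 0.0519 to 0.179). Vwf had 437 and 425 CPM on NOX_6_18, against 412 and 532 CPM on vehicle, and did not pass (−0.13 ± 0.12, edgeR adjusted p = 0.414). Its value was −0.30 without fl/fl vehicle replicate 1 (edgeR adjusted p = 0.0253) and 0.069 without replicate 2 (adjusted p = 0.558), so that the choice of vehicle library sets both its call and its sign.

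**Figure D1:**
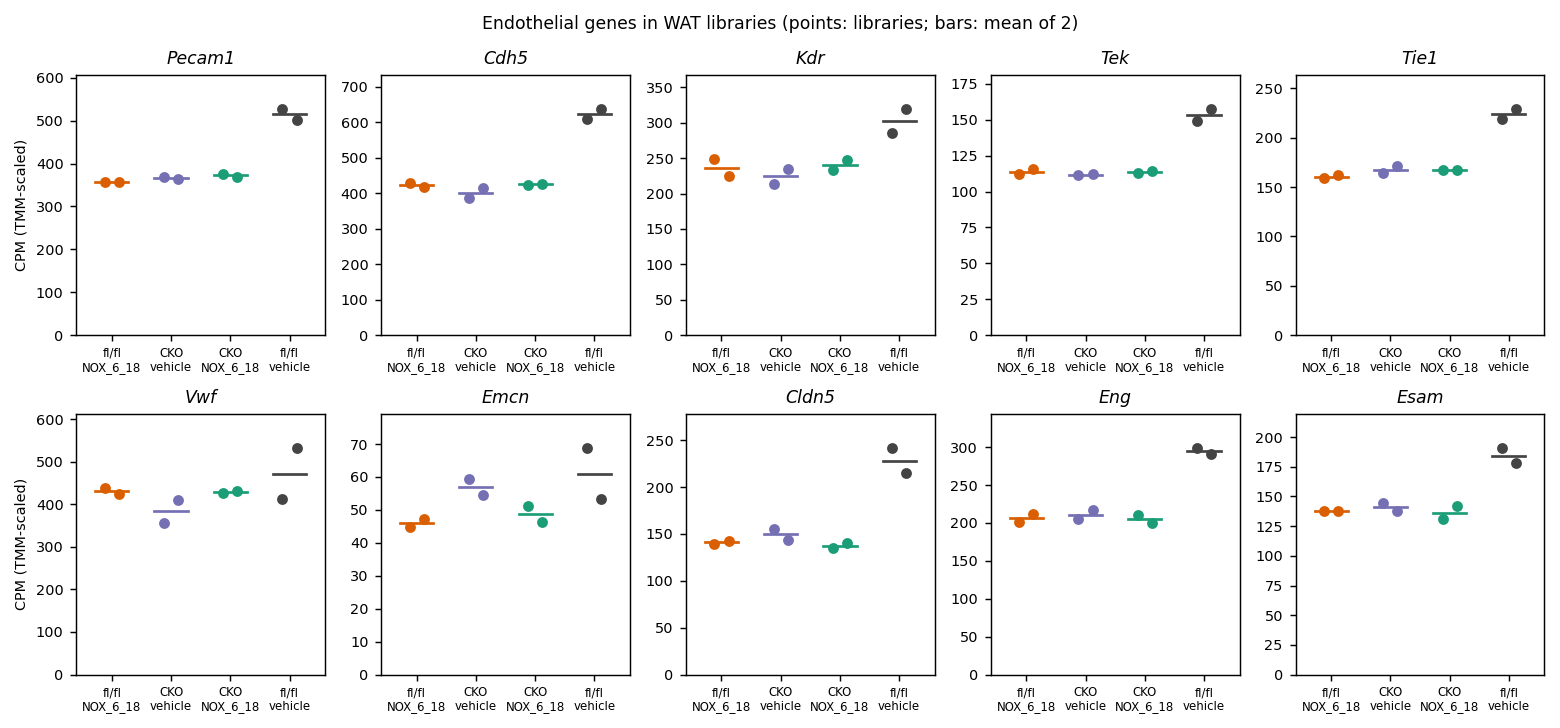
CPM (vertical axis, from 0, scaled by TMM) of the 10 endothelial genes in the 8 WAT libraries, with 1 point per library, a bar at the mean of the 2 libraries and groups along the horizontal axis. In 8 of the 10 panels both fl/fl vehicle libraries lie above all 6 others, and in the Vwf and Emcn panels they overlap with them. The share of all WAT genes apart in this way was not computed.

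The other WAT groups stood near the level of fl/fl on NOX_6_18. Across the 6 libraries outside fl/fl on vehicle, Pecam1 had 357 to 376 CPM, Cdh5 386 to 427 CPM, Tek 111 to 115 CPM and Cldn5 135 to 155 CPM. For 8 of the 10 genes, all but Vwf and Emcn, these 6 libraries lay below both fl/fl vehicle libraries. How common this is among all WAT genes was not computed. The 10 genes summed to 2165 to 2284 CPM in the 6 libraries, against 3001 and 3117 CPM in fl/fl on vehicle. As a plain share of all counts, with no scaling factor, the sum was 0.223 to 0.235% in the 6 libraries, against 0.274 and 0.287% in fl/fl on vehicle.

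In WAT on vehicle, 8 of the endothelial genes were lower in CKO than in fl/fl and none was higher, with 36.8% of all genes called and 12.4% called lower (6313 higher and 3216 lower, 7360 and 1455 on library totals, 5875 and 5181 after the GC and length correction). Cdh5 had 386 and 414 CPM in CKO and fell by 35.8% (−0.64 ± 0.056, edgeR adjusted p = 4.92e-05). Cldn5 had 155 and 144 CPM in CKO and fell by 34.5% (−0.61 ± 0.077, edgeR adjusted p = 0.000462). Pecam1 fell by 28.9%, Eng by 28.4%, Tek by 27.2%, Kdr by 25.9%, Tie1 by 25.2% and Esam by 23.5%, with both junction genes and receptors among them. Vwf had 357 and 410 CPM in CKO, against 412 and 532 CPM in fl/fl, and did not pass (−0.30 ± 0.12, edgeR adjusted p = 0.0768); DESeq2 called it (−0.29, adjusted p = 0.0454), as did edgeR without fl/fl vehicle replicate 1 (−0.47, adjusted p = 0.00339), whereas without fl/fl vehicle replicate 2 its value shrank (−0.10, adjusted p = 0.398). Emcn had 59.3 and 54.4 CPM in CKO, against 68.8 and 53.2 CPM in fl/fl (−0.10 ± 0.13, edgeR adjusted p = 0.573). The median over the 10 genes was −0.45, against 0.099 over all genes (0.26 on library totals, −0.031 after the GC and length correction) and −0.18 over the 5618 genes with a mean of at least 40 CPM. The share of these 5618 genes called lower was not computed for this comparison.

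CKO on NOX_6_18 against fl/fl on vehicle also gave 8 lower and no higher endothelial genes in WAT, with 38.2% of all genes called and 13.4% called lower (6409 higher and 3478 lower, 7537 and 1585 on library totals, 5884 and 5374 after the GC and length correction). Cldn5 fell by 39.8%, the most (−0.73 ± 0.078, edgeR adjusted p = 0.000157), and Kdr fell by 20.6%, the least of the 8 (−0.33 ± 0.086, edgeR adjusted p = 0.0163). The Kdr call was lost on library totals (adjusted p = 0.177) and without any 1 of 3 of its 4 libraries (adjusted p from 0.0507 to 0.111). Vwf (−0.14 ± 0.12, edgeR adjusted p = 0.393) and Emcn (−0.32 ± 0.13, edgeR adjusted p = 0.0772) did not pass. Over the 5618 genes with a mean of at least 40 CPM the median was −0.17, with quartiles of −0.37 and 0.068. Their share called lower was not computed. Without fl/fl vehicle replicate 1 Vwf passed (−0.31, adjusted p = 0.0231) and Emcn shrank (−0.13, adjusted p = 0.419). Without fl/fl vehicle replicate 2 Emcn passed (−0.49, adjusted p = 0.00807) and Vwf turned sign (0.063, adjusted p = 0.595).

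No endothelial gene of WAT was called for NOX_6_18 in CKO mice or for genotype on NOX_6_18. NOX_6_18 against vehicle in CKO gave log2 fold changes from −0.22 (Emcn) to 0.16 (Vwf). CKO against fl/fl on NOX_6_18 gave changes from −0.036 (Cldn5) to 0.085 (Emcn). By edgeR 0 of the 10 reached an unadjusted p under 0.05 in either, and DESeq2 and limma-voom also called 0. Over all genes edgeR called 4 (0.0155%) and 9 (0.0348%), with 897 and 618 genes at an unadjusted p under 0.05. Standard errors of the 10 genes were 0.051 to 0.13 on the log2 scale, and changes of several times that size can miss the threshold. Fitted without the fl/fl vehicle libraries, an alternative added after the data were seen, both comparisons again gave 0 of the 10.

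The treatment by genotype interaction, the log2 fold change with NOX_6_18 in CKO minus that in fl/fl, passed in WAT for 8 of the 10 genes, all positive, with 25.3% of all genes called and 6.71% called higher (1737 higher and 4810 lower, 789 and 5517 on library totals, 3156 and 4562 after the GC and length correction). It was 0.65 ± 0.079 for Cdh5 (edgeR adjusted p = 0.000526), 0.57 ± 0.11 for Cldn5 (edgeR adjusted p = 0.00596) and 0.55 ± 0.072 for Pecam1 (edgeR adjusted p = 0.000817). Vwf (0.29 ± 0.16, edgeR adjusted p = 0.239) and Emcn (0.19 ± 0.18, edgeR adjusted p = 0.502) did not pass. The share called higher among genes with a mean of at least 40 CPM was not computed for the interaction. The call of Kdr (0.45 ± 0.12, edgeR adjusted p = 0.0273) was lost without any 1 of 5 of the 8 WAT libraries (adjusted p from 0.0544 to 0.126), and that of Esam (0.37 ± 0.10, edgeR adjusted p = 0.0286) without any 1 of 6 (adjusted p from 0.0526 to 0.115). On library totals 5 of the 10 passed.

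**Figure D2:**
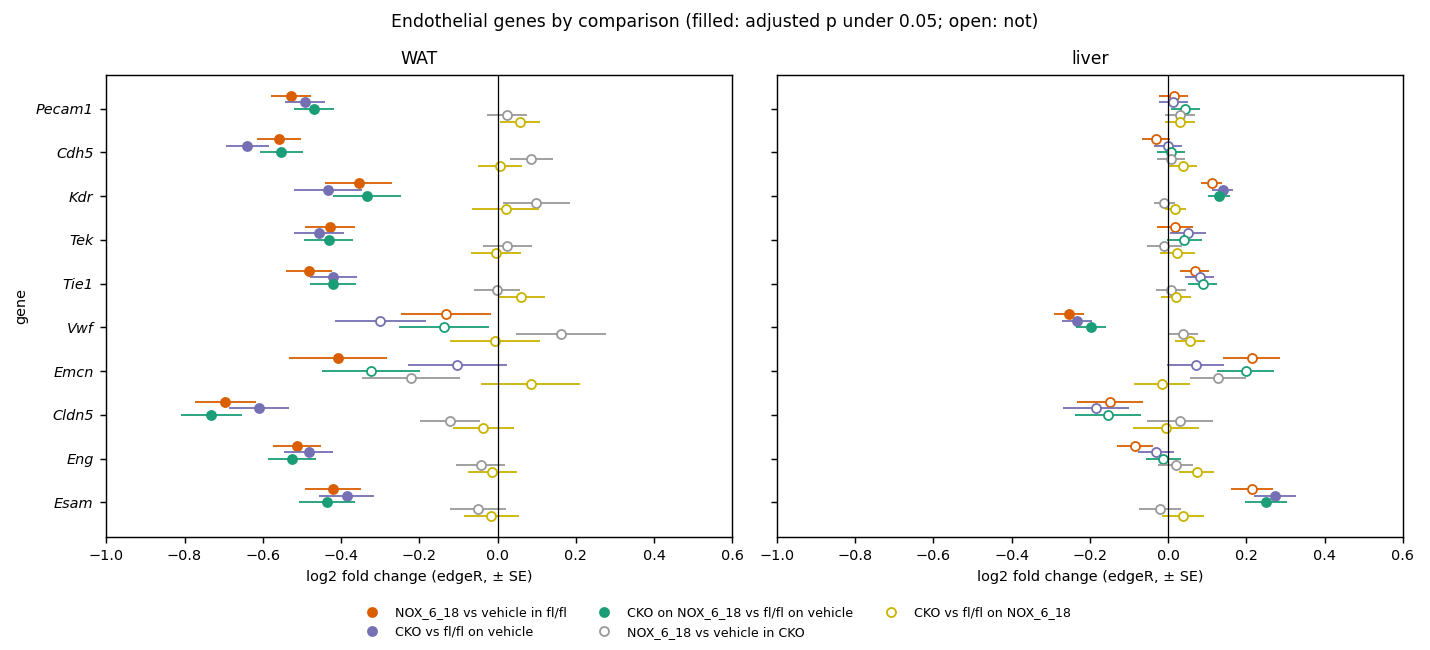
Log2 fold change with SE (horizontal axis, edgeR) of each endothelial gene in 5 comparisons between groups, WAT on the left and liver on the right; filled points have an adjusted p under 0.05. In WAT the 3 comparisons against fl/fl on vehicle lie left of 0 and the other 2 around it, and in liver all points lie between −0.25 and 0.27.

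In liver the summed level of the endothelial genes was nearly the same in all groups, and the few genes that passed changed in both directions. The 10 genes summed to 5139 and 5040 CPM in fl/fl on NOX_6_18, 5173 and 5200 CPM in CKO on vehicle and 5233 and 5202 CPM in CKO on NOX_6_18, against 5018 and 5139 CPM in fl/fl on vehicle. With NOX_6_18 in fl/fl liver 1 of the 10 passed, Vwf, which had 461 and 452 CPM on NOX_6_18, against 542 and 546 CPM on vehicle. It fell by 16.1% (−0.25 ± 0.038, edgeR adjusted p = 0.00623), and the call held without each of the 8 liver libraries in turn. Of all 19515 genes 5.52% passed in this comparison, 1.74% lower. Kdr had 1540 and 1528 CPM on NOX_6_18, against 1410 and 1430 CPM on vehicle (0.11 ± 0.027, edgeR adjusted p = 0.0548). Esam had 211 and 200 CPM on NOX_6_18, against 174 and 181 CPM on vehicle (0.21 ± 0.054, edgeR adjusted p = 0.062). Neither passed with edgeR, although their groups did not overlap. DESeq2 called Esam (adjusted p = 0.0143), and limma-voom called Kdr (adjusted p = 0.00513) and Esam (adjusted p = 0.0312).

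On vehicle, CKO liver differed from fl/fl liver in 3 of the 10 genes, with 5.80% of all genes called, 3.96% higher and 1.83% lower. Kdr had 1565 and 1563 CPM in CKO, against 1410 and 1430 CPM in fl/fl, and rose (0.14 ± 0.027, edgeR adjusted p = 0.0215). Esam had 210 and 219 CPM in CKO, against 174 and 181 CPM in fl/fl, and rose (0.27 ± 0.054, edgeR adjusted p = 0.0225). Vwf had 453 and 472 CPM in CKO, against 542 and 546 CPM in fl/fl, and fell (−0.23 ± 0.038, edgeR adjusted p = 0.00937). The margins were thin. Without any 1 of their 4 libraries the calls of Kdr and Esam were lost (edgeR adjusted p from 0.0658 to 0.138), and that of Vwf without any 1 of 3 of its 4 (adjusted p from 0.0515 to 0.0687).

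CKO liver on NOX_6_18 against fl/fl on vehicle gave the same 3 genes, with controls shared and 5.48% of all genes called, 3.79% higher and 1.69% lower. Kdr had 1563 and 1545 CPM in CKO on NOX_6_18 (0.13 ± 0.027, edgeR adjusted p = 0.0303), Esam 206 and 217 CPM (0.25 ± 0.054, edgeR adjusted p = 0.0334) and Vwf 477 and 472 CPM (−0.20 ± 0.038, edgeR adjusted p = 0.0219). Each call was lost when 1 of the 4 compared libraries was left out, whichever it was (edgeR adjusted p from 0.0703 to 0.183). Emcn did not pass there (0.20 ± 0.072, edgeR adjusted p = 0.185), at 67.4 and 68.1 CPM in CKO on NOX_6_18, against 60.1 and 58.0 CPM in fl/fl given vehicle. Cldn5 did not pass in any of the 3 comparisons, with 78.2 to 91.1 CPM over the 6 libraries outside fl/fl on vehicle, against 93.7 and 98.1 CPM in it. Pecam1, Cdh5, Tek, Tie1 and Eng had log2 fold changes between −0.085 and 0.088 in the 3 comparisons, with edgeR adjusted p from 0.267 to 1.

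Between the other liver groups none of the 10 genes was called. NOX_6_18 in CKO gave log2 fold changes from −0.021 (Esam) to 0.13 (Emcn), and CKO against fl/fl on NOX_6_18, where Gpr132 ran against the labels, from −0.016 (Emcn) to 0.073 (Eng). By edgeR 0 of the 10 reached an unadjusted p under 0.05 in either, and DESeq2 and limma-voom called 0. Over all genes edgeR called 7 (0.0359%) in each, with 792 and 864 genes at an unadjusted p under 0.05. The interaction of treatment and genotype passed for Vwf (0.29 ± 0.054, edgeR adjusted p = 0.0301), with 2.45% of all genes called and 0.584% called higher, and this call was lost without any 1 of the 8 liver libraries (adjusted p from 0.0512 to 0.104).

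**Figure D3:**
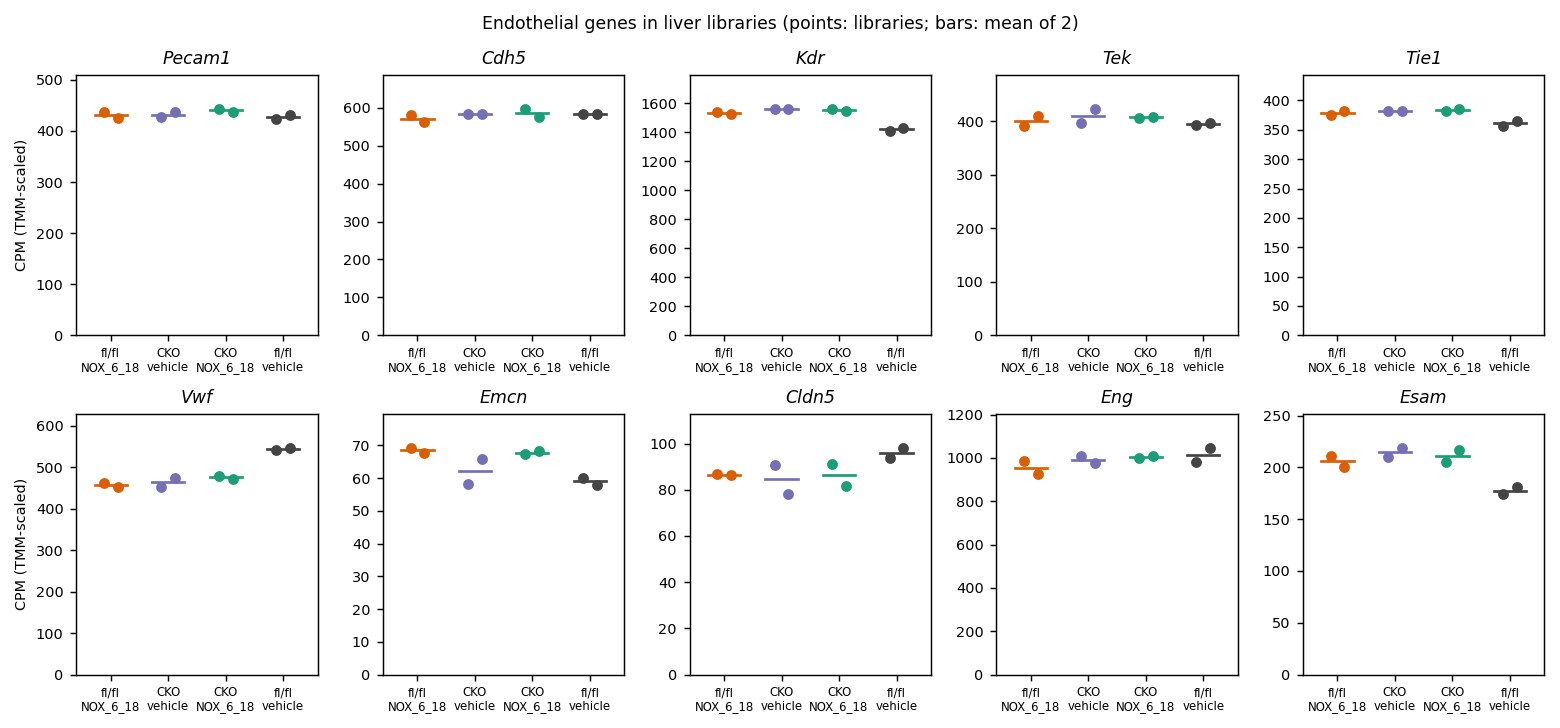
CPM (vertical axis, from 0, scaled by TMM) of the 10 endothelial genes in the 8 liver libraries, with 1 point per library, a bar at the mean of the 2 libraries and groups along the horizontal axis. Both fl/fl vehicle libraries lie above the 6 others for Vwf and Cldn5 and below them for Kdr, Tie1 and Esam. The share of all liver genes apart in this way was not computed.

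Whether WAT and liver differed in their change was tested over all 16 libraries, taken as independent. Shares called are over all genes, and none was computed for genes with a mean of at least 40 CPM. The log2 fold change with NOX_6_18 in fl/fl was lower in WAT than in liver for 9 of the 10 genes, all but Vwf (0.12 ± 0.14, edgeR adjusted p = 0.712), with 14.7% of 26751 genes called and 7.20% called lower (2011 higher and 1925 lower, 2499 and 975 on library totals, 1888 and 4280 after the GC and length correction). The difference was lowest for Esam (−0.63 ± 0.086, edgeR adjusted p = 0.000416), and on library totals 5 of the 10 passed. The log2 fold change with CKO on vehicle was lower in WAT than in liver for 8 of the 10, all but Vwf and Emcn, with 14.2% of all genes called and 6.75% called lower (1991 higher and 1805 lower, 2416 and 915 on library totals, 1908 and 4122 after the GC and length correction). That difference was lowest for Esam (−0.65 ± 0.086, edgeR adjusted p = 0.000342) and Cdh5 (−0.63 ± 0.067, edgeR adjusted p = 7.23e-05). For Cldn5 (−0.42 ± 0.12, edgeR adjusted p = 0.0344) it was lost on library totals (−0.26, adjusted p = 0.266), with only the compared groups in the fit (adjusted p = 0.0968) and without any 1 of 9 of the 16 libraries (adjusted p from 0.0521 to 0.148).

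The make-up of the endothelial set differed between the tissues in every group, which can be read within a library without scaling between libraries. Each gene's CPM per kilobase of exon was taken as a share of the sum over the 10 genes. Cldn5 made up 20.1% to 24.9% of that sum in the 8 WAT libraries and 5.73% to 7.21% in the 8 liver libraries. Eng went the other way, with 10.3% to 11.2% in WAT and 24.4% to 26.9% in liver. Kdr made up 4.60% to 5.81% in WAT and 16.5% to 18.1% in liver. Cdh5 and Pecam1, at the junction like Cldn5, took larger shares in WAT, Cdh5 with 19.3% to 22.4% in WAT and 14.1% to 14.9% in liver, and Pecam1 with 11.9% to 12.7% in WAT and 7.08% to 7.32% in liver. The receptor Tek took 4.60% to 5.15% in WAT and 8.66% to 9.32% in liver. For none of the 10 genes did the shares overlap between tissues. They came closest for Vwf (3.73% to 5.74% in WAT and 2.91% to 3.62% in liver) and Emcn (1.45% to 2.30% in WAT and 1.11% to 1.34% in liver). Shares are parts of a single sum, so larger shares of Eng and Kdr in liver lower the others. Set against Pecam1 in the same library, the per-kilobase level of Kdr was 0.372 to 0.481 in WAT and 2.29 to 2.53 in liver, and that of Eng 0.833 to 0.918 in WAT and 3.34 to 3.73 in liver. By this ratio Cdh5 was higher in liver (1.55 to 1.88 in WAT and 1.95 to 2.04 in liver), unlike its share. Cldn5 stayed higher in WAT (1.58 to 2.01, against 0.788 to 1.00 in liver). Vwf (0.302 to 0.475 in WAT and 0.409 to 0.496 in liver) and Emcn (0.122 to 0.185 and 0.155 to 0.183) overlapped between tissues.

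**Figure D4:**
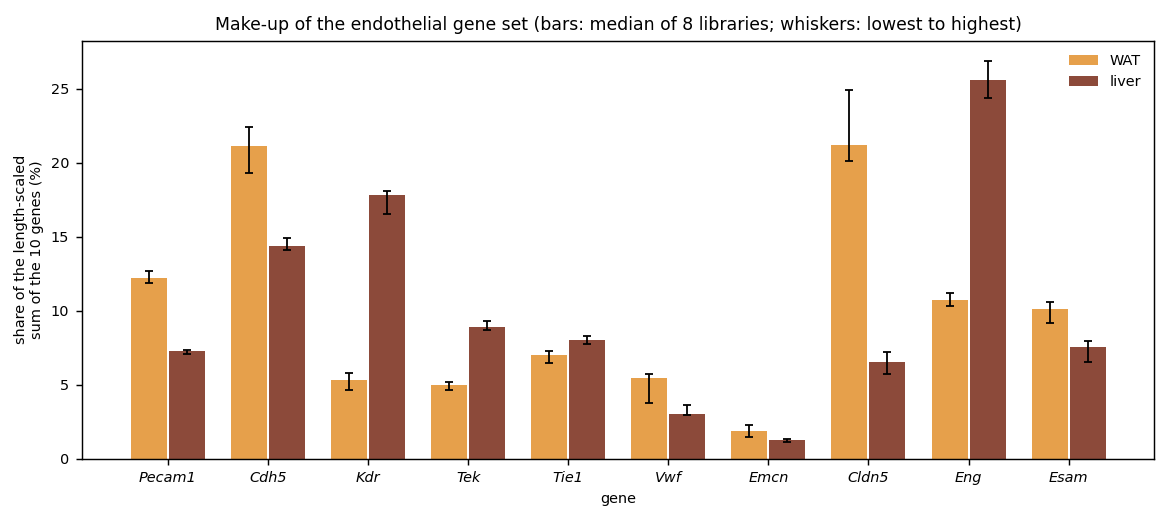
Share of the length-scaled sum of the 10 endothelial genes taken by each gene (vertical axis, percent, from 0), as the median of 8 libraries with whiskers from the lowest to the highest library, WAT left of liver. Cldn5, Cdh5 and Pecam1 take larger shares in WAT, and Eng, Kdr and Tek in liver.

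By level per kilobase, Cldn5 (median 101 CPM per kilobase over 8 libraries, range 95.2 to 171) and Cdh5 (median 101, range 91.9 to 152) led in WAT and did not differ beyond their spread. Pecam1, Eng, Esam, Tie1, Kdr, Vwf and Tek followed with medians from 59.2 to 24.1 CPM per kilobase, each overlapping its neighbour over libraries that include the higher fl/fl vehicle pair, and Emcn was lowest (8.27 to 12.7 CPM per kilobase). As shares of the sum within a library, which do not carry that difference in level, Pecam1 (11.9% to 12.7%) lay above Eng (10.3% to 11.2%), and Esam (9.18% to 10.6%) above Tie1 (6.49% to 7.24%) and Kdr (4.60% to 5.81%), without overlap between these neighbours. Eng and Esam overlapped, as did Kdr, Vwf and Tek. In liver Eng led at 228 to 259 CPM per kilobase, followed without overlap by Kdr (156 to 173), Cdh5 (134 to 142) and Tek (83.0 to 89.9). Tie1, Esam, Pecam1 and Cldn5 came next and overlapped as neighbours, and Vwf (28.1 to 34.0) and Emcn (10.7 to 12.8) were lowest.

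Levels set across the tissues depend on scaling, and mitochondrial transcripts took 2.31% to 3.61% of WAT counts and 43.0% to 44.9% of liver counts. With TMM over the 16 libraries, 9 of the 10 genes were lower in WAT than in liver of fl/fl mice on vehicle, with 38.2% of all genes called and 16.5% called lower. The differences were largest for Kdr (−3.30 ± 0.073, edgeR adjusted p = 3.41e-12), Eng (−2.85 ± 0.055, edgeR adjusted p = 1.1e-12) and Tek (−2.43 ± 0.053, edgeR adjusted p = 2.6e-12). Cldn5 did not pass (0.18 ± 0.084, edgeR adjusted p = 0.11). Shares called between tissues were not computed for genes with a mean of at least 40 CPM. On library totals the median of all genes was 0.95, against 0.0049 with TMM, and called genes split into 13551 and 1744 higher and lower, against 5788 higher and 4418 lower with TMM. There Pecam1 was higher in WAT (0.15, adjusted p = 0.0153) as was Cldn5 (1.13, adjusted p = 4.88e-07), and Cdh5, Emcn and Esam lost their calls. In the other 3 groups all 10 genes were lower in WAT with TMM, with 51.4% (fl/fl on NOX_6_18), 52.0% (CKO on vehicle) and 51.3% (CKO on NOX_6_18) of all genes called, and 18.3%, 18.4% and 18.1% called lower in the same order. The split of called genes moved there too, in fl/fl on NOX_6_18 (8865 higher and 4891 lower, 17739 and 1483 on library totals, 7255 and 7923 after the GC and length correction), CKO on vehicle (9004 higher and 4917 lower, 17817 and 1500 on library totals, 7426 and 7829 after the GC and length correction) and CKO on NOX_6_18 (8895 higher and 4837 lower, 17801 and 1505 on library totals, 7184 and 7920 after the GC and length correction). On library totals Cldn5 turned to between 0.71 and 0.87 and Vwf lost its 3 calls, as did Emcn in CKO on vehicle. With TMM the Cldn5 call in CKO on vehicle (−0.23 ± 0.084, edgeR adjusted p = 0.0336) was lost with no filter (adjusted p = 0.0781), with only the compared groups (adjusted p = 0.0676) and without any 1 of 6 of the 16 libraries (adjusted p from 0.0505 to 0.339), with −0.12, adjusted p = 0.339 without CKO vehicle liver replicate 1.

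Genes that act with these 10 were read from lists by pathway, for NOX_6_18 against vehicle in fl/fl. In that comparison 37.8% of all WAT genes were called and 13.2% were lower, with 37.2% lower and a median of −0.17 among those with a mean of at least 40 CPM. In liver 5.52% of all genes were called, and no share was computed for those with a mean of at least 40 CPM. Of 9 VEGF ligands and receptors, 6 were lower and 0 higher in WAT, with a median log2 fold change of −0.38. Vegfd, a VEGF ligand, had 39.8 and 39.0 CPM on NOX_6_18, against 60.7 and 58.6 CPM on vehicle (−0.60 ± 0.080, edgeR adjusted p = 0.000609). Nrp1, a VEGF co-receptor (−0.44 ± 0.082, edgeR adjusted p = 0.00339), and Flt4, VEGF receptor 3 (−0.38 ± 0.074, edgeR adjusted p = 0.00458), fell too. In liver 2 of the 9 were higher and 0 lower. Flt1, VEGF receptor 1, had 428 and 434 CPM on NOX_6_18, against 359 and 358 CPM on vehicle (0.27 ± 0.036, edgeR adjusted p = 0.00365), and Flt4 had 828 and 812 CPM on NOX_6_18, against 710 and 702 CPM on vehicle (0.22 ± 0.031, edgeR adjusted p = 0.0051). Flt4 was thus lower on NOX_6_18 in WAT and higher in liver. Of 4 angiopoietin-axis genes, the TIE2 ligands Angpt4 (0.81 ± 0.14, edgeR adjusted p = 0.00224) and Angpt2 (−0.55 ± 0.097, edgeR adjusted p = 0.0026) passed in WAT in opposite directions, and 0 passed in liver.

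Among the endoglin partners, 4 of 10 tested were lower and 0 higher in WAT, a share near the 37.2% of genes at 40 CPM or more. They include the TGF-beta receptor Tgfbr2 (−0.56 ± 0.066, edgeR adjusted p = 0.000288), the signal transducer Smad1 (−0.33 ± 0.076, edgeR adjusted p = 0.0108) and Id1, a target gene of BMP signals (−0.42 ± 0.13, edgeR adjusted p = 0.0295). In liver 3 of 11 were lower and 0 higher. The 3 are genes that BMP signals are known to induce, but BMP signalling itself was not tested. Id3 had 134 and 139 CPM on NOX_6_18, against 194 and 186 CPM on vehicle (−0.48 ± 0.064, edgeR adjusted p = 0.00345). Smad7, an inhibitory SMAD (−0.35 ± 0.071, edgeR adjusted p = 0.0273), and Id1 (−0.36 ± 0.086, edgeR adjusted p = 0.0498) passed with smaller changes.

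Endothelial transcription factors fell broadly in WAT, with 10 of 13 lower, 0 higher and a median of −0.52. Sox18, an endothelial SOX factor, had 22.8 and 23.1 CPM on NOX_6_18, against 51.3 and 41.9 CPM on vehicle (−1.02 ± 0.11, edgeR adjusted p = 0.000199). Elk3, an ETS factor (−0.62 ± 0.067, edgeR adjusted p = 0.000171), and Klf2, a factor induced by blood flow (−0.52 ± 0.068, edgeR adjusted p = 0.000545), fell as well. In liver 2 of the 13 were higher and 0 lower. Klf2 had 122 and 141 CPM on NOX_6_18, against 72.2 and 74.8 CPM on vehicle (0.84 ± 0.079, edgeR adjusted p = 0.000509) in liver, opposite to its change in WAT, and its relative Klf4 rose there (0.65 ± 0.072, edgeR adjusted p = 0.0012). Of 12 junction partners, 4 were lower and 2 higher in WAT. The lower count is near the share of 37.2% called lower among WAT genes at 40 CPM or more. Jam2, a junctional adhesion molecule (−0.50 ± 0.060, edgeR adjusted p = 0.000332), and Jup, the plaque protein plakoglobin (−0.36 ± 0.064, edgeR adjusted p = 0.00268), fell, whereas Cgn, the tight-junction protein cingulin of epithelia, rose (0.95 ± 0.23, edgeR adjusted p = 0.0121). In liver none was higher, and F11r, a junctional adhesion molecule that hepatocytes also express, fell (−0.30 ± 0.060, edgeR adjusted p = 0.026).

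Of 21 other endothelial genes, 15 were lower and 0 higher in WAT (median −0.41). Egfl7, a secreted endothelial protein, had 54.2 and 61.1 CPM on NOX_6_18, against 112 and 98.2 CPM on vehicle (−0.86 ± 0.10, edgeR adjusted p = 0.000265). Clec14a, an endothelial lectin (−0.83 ± 0.092, edgeR adjusted p = 0.00021), and Rasip1, a regulator of vessel lumen formation (−0.54 ± 0.067, edgeR adjusted p = 0.000387), fell too. Exons of Egfl7, Elk3, Nrp1 and Rasip1 overlap those of other genes, so their counts are uncertain. In liver 4 of the 21 were higher and 1 lower. S1pr1, the endothelial sphingosine-1-phosphate receptor, had 122 and 119 CPM on NOX_6_18, against 61.5 and 58.0 CPM on vehicle (1.01 ± 0.055, edgeR adjusted p = 2.79e-05). Thbd, the anticoagulant receptor thrombomodulin, had 240 and 244 CPM on NOX_6_18, against 132 and 137 CPM on vehicle (0.85 ± 0.046, edgeR adjusted p = 2.79e-05). The tetraspanin gene Tspan7 rose by less (0.39 ± 0.037, edgeR adjusted p = 0.000554). The fold changes of the 10 pan-endothelial genes in that comparison lay between −0.25 and 0.21.

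Markers of endothelial subtypes were read in the same comparison. In WAT, 6 of 7 arterial markers were lower and 0 higher (median −0.57), and 4 of 6 markers of fat capillaries were lower and 0 higher (median −0.46). Of 5 venous markers 2 were lower and 0 higher, of 5 lymphatic markers 2 lower and 1 higher, and of 8 sinusoidal markers 1 lower and 2 higher. The venous and lymphatic counts are near the share of 37.2% called lower among WAT genes at 40 CPM or more. Over all 19515 liver genes 738 were called higher and 339 lower. The 2753 liver genes with a mean of at least 40 CPM had a median log2 fold change of 0.040, with quartiles of −0.067 and 0.17. Their share called was not computed, so small liver counts cannot be judged against it. In liver 6 of the 8 sinusoidal markers were higher and 0 lower, and their summed level was 9114 and 9193 CPM on NOX_6_18, against 7412 and 7426 CPM on vehicle. Dnase1l3, a secreted nuclease picked for naming after its values were seen, had 1456 and 1477 CPM on NOX_6_18, against 1075 and 1111 CPM on vehicle (0.42 ± 0.034, edgeR adjusted p = 0.0002). Of 7 arterial markers 2 were higher in liver and 0 lower, and the connexin gene Gja4, picked in the same way, had 113 and 116 CPM on NOX_6_18, against 59.0 and 59.7 CPM on vehicle (0.95 ± 0.061, edgeR adjusted p = 7.16e-05). Fat capillary markers gave 2 higher and 0 lower of 6 in liver, venous markers 1 higher and 2 lower of 5, and lymphatic markers 1 higher and 1 lower of 5. The fat capillary list was not particular to fat here. With CPM scaled within each tissue, it summed to 503 to 780 CPM over all WAT groups and 835 to 956 CPM over all liver groups.

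**Figure D5:**
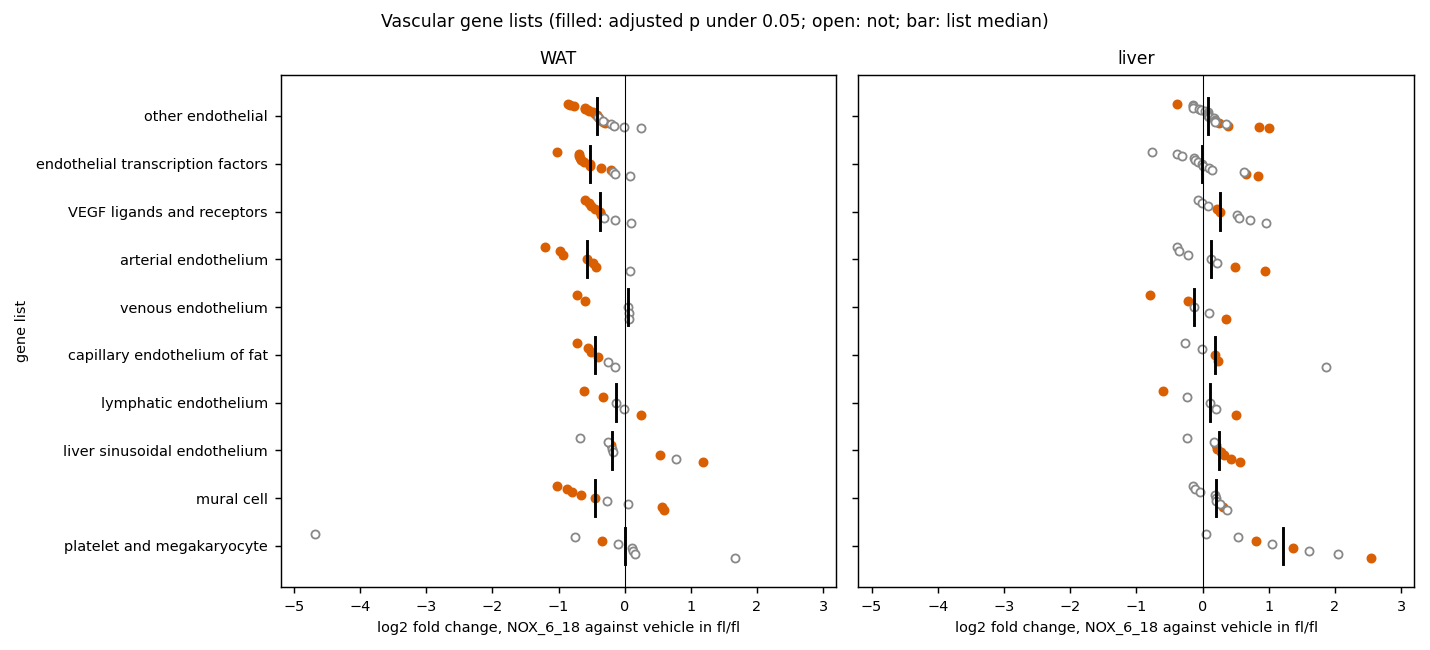
Log2 fold change (horizontal axis, edgeR, NOX_6_18 against vehicle in fl/fl) of each gene in 10 vascular lists, WAT on the left and liver on the right; filled points have an adjusted p under 0.05, bars mark list medians, and Aqp7, at 0 in both fl/fl vehicle livers, is not drawn. In WAT the transcription factor and arterial lists lie mostly left of 0, and in liver the sinusoidal list lies mostly right of it.

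Genes of other cells moved in WAT beside the endothelial genes, for NOX_6_18 against vehicle in fl/fl. Over all 25871 WAT genes 6373 were called higher and 3411 lower, and 37.2% of those at 40 CPM or more were lower. Over all 19515 liver genes 738 were called higher and 339 lower. Of 9 mural cell genes 5 were lower and 2 higher, with a sum of 2735 and 2748 CPM on NOX_6_18, against 3175 and 3340 CPM on vehicle. Of 10 macrophage markers 7 were lower and 1 higher (6351 and 6359 CPM on NOX_6_18, against 8905 and 9796 CPM on vehicle). Of 7 fibroblast markers 6 were lower and 0 higher (11430 and 11480 CPM on NOX_6_18, against 21400 and 21940 CPM on vehicle). In the other direction, 8 of 8 spermatid and spermatocyte genes, 6 of 7 Leydig and Sertoli genes and 5 of 6 hepatocyte genes were higher on NOX_6_18. The part of these shifts in the endothelial values was not tested. Megakaryocytes and platelets also carry Vwf, and in liver 3 of 8 of their genes were higher and 0 lower, with a sum of 23.6 and 25.2 CPM on NOX_6_18, against 13.3 and 15.9 CPM on vehicle. Vwf was lower in that comparison.

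Across the 8 WAT libraries the 45 pairs of endothelial genes had a median Pearson r of 0.919 on log2 CPM. Vwf (0.461 with the mean of the other 9) and Emcn (0.542) followed the rest least, and Pecam1 (0.989) most. These are descriptions over 8 libraries that share groups, with the fl/fl vehicle libraries apart from the others. Outside the set the genes most like the mean of the 10 in WAT were Anpep, Vasp, Nceh1, Aplnr and Aqp1, with r of 0.998 to 0.999, and 2088 of the 12453 protein-coding genes compared had an r above 0.9. In liver the pairs had a median r of 0.271, with Cldn5 (−0.703) and Vwf (−0.699) running against the mean of the others. The most alike there were Trip4, Zfp617, Nat9, Klhl18 and Gatb, with r of 0.92 to 0.942, and 12 of 9783 genes had an r above 0.9. Exons of Zfp617 overlap those of Zfp882 on the same strand by 104 bases, so its counts are uncertain.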

How the data were processed

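Sample titles gave the groups and replicate numbers. Per the labels' protocols, tissue was frozen, total RNA was taken with TRIzol and libraries were made with a KAPA stranded kit. What the authors deposited were unnormalised read counts for every gene, 1 file per library. Per the submitters' processing notes the tools were featureCounts 1.5.0, HISAT and DESeq 1.8.3 and the build GRCm38, with no role or order; strand setting, annotation and filters were not stated. No pair of libraries was identical, and replicates differed beyond counting noise (mean chi-square per gene 15.9 to 91.4 over genes with at least 50 counts). A floor of 3 counts equals 0.0494 to 0.0658 CPM, for counting error only.

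GENCODE M21 gave a symbol for 55154 (99.5%) of 55421 identifiers. Group differences were fitted with edgeR 4.0.16 in R 4.3.3 (glmQLFit, glmQLFTest, TMM, filterByExpr by group, Benjamini-Hochberg over all genes), 1 fit per tissue and 1 with all 16 libraries across tissues. SE is |log2 fold change| divided by √F. Correlations used log2 CPM with a prior count of 2. The fit was tested on simulated data, with 200 changed genes of at least 1000 counts on average. Of 1.5-fold changes 31.3% were recovered in WAT and 47.8% in liver, and of 2-fold changes 92.5% and 97%. Changes below 1.5-fold were not simulated. Alternatives were other scalings (RLE, upper-quartile, library totals, GC and length correction with libraries recentred), other filters (none, 50 counts), other tools (DESeq2 1.42.0, limma-voom with limma 3.58.1), other designs (replicate block, compared groups alone) and leave-one-out fits. Within a tissue, replicate numbers did not pair the samples across groups. Whether WAT and liver libraries of the same group and number come from the same mouse was not tested.

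The 10 genes and all lists were chosen with earlier results of these data known. All 10 are described. Named from each pathway list are up to 3 called genes with the lowest adjusted p for NOX_6_18 in fl/fl of each tissue, and by likeness the 5 protein-coding genes per tissue with the highest r and a mean of at least 5 CPM. Promoters of Pecam1, Cdh5, Vwf and Esam were not used here, and 1 gene that the rule names is not reported here.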

Additional observations from a re-analysis of the deposited data

Results flagged for a closer look

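In WAT the log2 fold change with NOX_6_18 differed between CKO and fl/fl mice by edgeR's interaction test for 8 of the 10 genes. The interaction, CKO minus fl/fl, was 0.55 for Pecam1, 0.65 for Cdh5, 0.45 for Kdr, 0.45 for Tek, 0.48 for Tie1, 0.57 for Cldn5, 0.47 for Eng and 0.37 for Esam. In liver it passed for Vwf, at 0.29.

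The log2 fold change with NOX_6_18 in fl/fl differed between WAT and liver for 9 genes. The difference, WAT minus liver, was −0.54 for Pecam1, −0.52 for Cdh5, −0.46 for Kdr, −0.44 for Tek, −0.55 for Tie1, −0.62 for Emcn, −0.54 for Cldn5, −0.42 for Eng and −0.63 for Esam.

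The log2 fold change with CKO on vehicle differed between WAT and liver for 8 genes. The difference, WAT minus liver, was −0.50 for Pecam1, −0.63 for Cdh5, −0.56 for Kdr, −0.50 for Tek, −0.49 for Tie1, −0.42 for Cldn5, −0.44 for Eng and −0.65 for Esam. All of these interactions use the fl/fl vehicle libraries, whose part was not tested.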

How the results depend on the processing

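Not every gene was followed in every comparison, and some without a call were left out. Of 1167 single-gene values followed under other settings, 1116 kept their direction and their side of the threshold. Of the rest, 34 lost a call, 9 gained one and 8 turned sign. With 1 library left out, 1262 of 1344 kept both. On library totals Vwf in WAT turned to 0.034 for NOX_6_18 in fl/fl and 0.029 for CKO on NOX_6_18, Emcn to 0.064 for CKO on vehicle, and, for WAT against liver, Pecam1 to 0.15 in fl/fl on vehicle and Cldn5 to 0.75, 0.87 and 0.71 in the other groups. Cldn5 in fl/fl on vehicle turned to −0.061 after the GC and length correction. Leaving out 1 library gave Vwf in WAT −0.30 to 0.069 for NOX_6_18 in fl/fl and −0.31 to 0.063 for CKO on NOX_6_18, and Emcn −0.27 to 0.095 in WAT and −0.017 to 0.16 in liver for CKO on vehicle. The causes were not tested.

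On library totals 5 of the 10 passed for the WAT interaction and 5 for the NOX_6_18 difference between tissues. For NOX_6_18 in fl/fl liver 2 passed after the GC and length correction, with at least 50 counts and with DESeq2, and 3 with limma-voom. For CKO on NOX_6_18 in liver 1 passed on library totals and 1 with only the compared groups. The liver interaction gave 0 on library totals, after the GC and length correction, with the replicate block and with all 16 libraries, and 2 with limma-voom. Only Vwf was followed singly there, so the other gene is not among the 9 gains above. Leaving out 1 library gave 7 to 9 for NOX_6_18 in fl/fl WAT, 6 to 8 for the WAT interaction, 0 to 3 for CKO and 0 to 3 for CKO on NOX_6_18 in liver, and 0 in every such fit for the liver interaction.

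Within a tissue, replicate numbers do not pair the samples across groups (r of same-numbered differences −0.106 to 0.195). Besides the 0 above, the replicate block lost Esam for CKO on NOX_6_18 in liver (edgeR adjusted p = 0.0519). Counts over all genes moved most where few were called. NOX_6_18 in CKO WAT gave 4 with edgeR, 46 with DESeq2, 2 with the block, 9 with only the compared groups and 12 without fl/fl vehicle. CKO on NOX_6_18 against fl/fl on NOX_6_18 in WAT gave 9, 46 with DESeq2 and 5 with the block. In liver these comparisons gave 7 each, 35 and 42 with DESeq2, 15 and 20 with no filter, and the genotype comparison 24 with only its groups and 12 without fl/fl vehicle. The liver interaction gave 478, and 829 with DESeq2. The tissue differences gave 3936 for NOX_6_18 and 3796 for CKO, against 6168 and 6030 after the GC and length correction, 6103 and 5942 with DESeq2, and 6518 and 6528 with limma-voom.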

Other observations

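Lists of other cells gave these counts for NOX_6_18 against vehicle in fl/fl. Over all genes, 6373 of 25871 were called higher and 3411 lower in WAT, and 738 of 19515 higher and 339 lower in liver. Tip cell genes gave 1 higher and 2 lower of 4 in WAT and 0 higher and 1 lower of 4 in liver. Kupffer cell genes gave 0 higher and 1 lower of 5 in WAT and 4 higher and 0 lower of 5 in liver, and T, NK and B cell genes 0 higher and 0 lower of 6 in WAT and 0 higher and 2 lower of 6 in liver. Adipocyte genes gave 3 higher and 1 lower of 6 in WAT and 0 higher and 0 lower of 3 in liver, and mesothelial genes 1 higher and 0 lower of 4 in WAT and 0 higher and 0 lower of 4 in liver. Neutrophil genes gave 3 higher and 0 lower of 4 in WAT and 4 higher and 0 lower of 5 in liver, and erythroid genes 4 higher and 0 lower of 5 in WAT and 0 higher and 3 lower of 5 in liver. In liver, mural genes gave 1 higher and 0 lower of 9, macrophage genes 1 and 1 of 10, fibroblast genes 2 and 0 of 7, hepatocyte genes 3 and 1 of 6, spermatid and spermatocyte genes 0 and 0 of 4 tested, and Leydig and Sertoli genes 0 and 1 of 6. Platelet genes in WAT gave 0 higher and 1 lower of 8.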
